A study of Mus musculus with 36 samples.

Results

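The genes described here are the aryl hydrocarbon receptor gene Ahr and 3 genes known to be induced by the receptor, Ahrr, Cyp1b1 and Tiparp, in mouse eosinophils. They were found in the tables by symbol, and the choice of genes was made with earlier results of these data known. All 4 were present among the 9844 genes of the tissue table and among the 8001 genes of the table of sorted cells. Total eosinophils, granulocytes that circulate and settle in mucosal tissues, had been flow-sorted from wildtype C57BL/6 mice in steady state, 8 to 12 weeks old and of both sexes pooled. They gave 24 libraries of 7 tissues: small intestine (4 libraries), colon (3), skin (3), lung (3), spleen (4), bone marrow (3) and blood (4). A further 11 libraries held small intestine eosinophils of NMUR1-TdT reporter mice of the same strain and age, also in steady state and with sexes pooled, sorted as Nmur1 positive (5) or Nmur1 negative (6). Nmur1 encodes the receptor of the neuropeptide neuromedin U. How the reporter allele was built, and whether replicates were separate animals, is not given in the sources used here. A p-value here therefore weighs a difference against the spread among libraries, and that spread may be technical.

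The receptor is a ligand-activated transcription factor of the bHLH-PAS family. Without ligand it is held in the cytosol by a complex that includes Hsp90 and Ptges3. With ligand it enters the nucleus, pairs with Arnt and binds DNA at response elements with the core GCGTG. Its known ligands in the gut include plant indoles, microbial tryptophan products and host kynurenines. Several of the genes it induces act back on the pathway. Cyp1b1 is a monooxygenase that breaks down many ligands. Ahrr encodes the receptor repressor, which competes for Arnt. Tiparp encodes a mono-ADP-ribosyltransferase that modifies and lowers the receptor. Tiparp is also known to respond to other signals, among them hypoxia.

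On mm10 (GENCODE M21) Ahr lies on the minus strand at chr12:35497974-35535038, Ahrr on the minus strand at chr13:74211118-74292331, Cyp1b1 on the minus strand at chr17:79701537-79715061 and Tiparp on the plus strand at chr3:65528410-65555518. All 4 are annotated as protein-coding. An exon of Ahr overlaps the opposite-strand gene Gm48236, and an exon of Tiparp overlaps the opposite-strand gene 4931440P22Rik. The libraries were made by a method that does not mark strand, so reads of those overlaps cannot be told apart by strand.

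The bases just upstream of the 3 induced genes are shown because they hold the core through which the receptor is known to bind. They run 5′ to 3′ along the gene strand, from RefSeq on GRCm38.p6. Capitals mark GCGTG, or CACGC where the core lies on the other strand.
Ahrr, minus strand, chr13:74292332-74292581: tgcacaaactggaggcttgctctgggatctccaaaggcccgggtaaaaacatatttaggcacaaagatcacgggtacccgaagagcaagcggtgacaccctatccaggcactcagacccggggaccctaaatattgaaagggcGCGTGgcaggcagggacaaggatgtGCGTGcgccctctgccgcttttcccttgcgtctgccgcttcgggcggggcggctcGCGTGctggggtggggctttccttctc
Cyp1b1, minus strand, chr17:79715062-79715311: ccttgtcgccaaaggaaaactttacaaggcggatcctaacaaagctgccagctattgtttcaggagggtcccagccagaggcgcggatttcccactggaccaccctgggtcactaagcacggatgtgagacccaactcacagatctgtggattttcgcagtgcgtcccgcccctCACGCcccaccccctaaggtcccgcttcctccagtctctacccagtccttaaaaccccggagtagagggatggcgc
Tiparp, plus strand, chr3:65528197-65528409: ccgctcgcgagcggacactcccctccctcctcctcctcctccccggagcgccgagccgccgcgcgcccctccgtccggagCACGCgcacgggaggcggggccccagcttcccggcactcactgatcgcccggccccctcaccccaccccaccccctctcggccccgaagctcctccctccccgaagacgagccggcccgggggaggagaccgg

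The Ahrr stretch held 3 cores, which began 107, 82 and 27 bases before the annotated start. The last of these was part of TCGCGTG, the one match to the longer form TNGCGTG, which contains the core. The Cyp1b1 stretch held 1 core, 76 to 72 bases before the start and on the other strand. The Tiparp stretch held 1 core, 170 to 166 bases before the RefSeq start and also on the other strand. The 213 bases printed for Tiparp end at the GENCODE start, which lies before the RefSeq start. The core is thus nearer to the GENCODE start than to the RefSeq start. On either strand, at least 1 core was found in 45.4% of 10177 RefSeq promoter windows of genes in the tissue table and in 28.2% of all 32851 windows. At least 3 cores were found in 5.62% of windows of genes in the tissue table and in 2.77% of all windows. TNGCGTG was found in 6.73% of windows of genes in the tissue table and 4.1% of all windows. The core is common in promoters, and a match describes these letters, not a bound site.

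The measured unit was TPM (transcript abundance scaled to a fixed total per library), which divides reads by transcript length. It keeps no sequencing depth, so the depth of each library is unknown. Between 7770 and 9325 genes reached 1 TPM in the tissue libraries and between 7740 and 7928 in the sorted libraries. Log2(TPM + 1) values correlated with those of the same group at a mean r of 0.922 to 0.973 in tissues and 0.930 to 0.941 in the sort. Eosinophil markers were present. Siglecf, a surface lectin of eosinophils, ranged between 217.68 and 347.1 TPM in small intestine and between 245.04 and 347.07 TPM in colon. Epx, which encodes a granule protein made mainly in the bone marrow, was listed at 0 in all 3 colon libraries and reached 1.38 TPM at most in small intestine. Nmur1 averaged 40.8 ± 13.2 TPM in Nmur1 positive cells (SD, n = 5) and 7.32 ± 5.03 TPM in Nmur1 negative cells (SD, n = 6).

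All 4 genes were highest in small intestine, but they parted company in the other tissues. The receptor gene was also high in colon, spleen and blood. Tiparp was high in both gut tissues, intermediate in lung and skin and low elsewhere. Ahrr was above 1.25 TPM in the 2 gut tissues alone, and Cyp1b1 above 0.89 TPM in small intestine alone. In these bulk libraries, fewer cells that express a gene and less RNA of it per cell cannot be told apart.

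Ahr was present in every library. In small intestine it stood at 217.3, 220.27, 191.09 and 189.88 TPM. In colon it stood at 175.46, 146.93 and 150.36 TPM, and in spleen at 98.77, 151.34, 126.76 and 112.12 TPM. The lowest small intestine library was above every library of the other tissues, and colon and spleen overlapped. In skin Ahr stood at 18.38, 30.4 and 26.11 TPM, in lung at 37.53, 43.38 and 37.13 TPM and in bone marrow at 10.09, 11.19 and 13.57 TPM. In blood it stood at 104.39, 89.63, 98.96 and 88.73 TPM. Every blood library was thus above every library of lung, skin and bone marrow. How many of all genes separate tissues in these ways was not counted. In blood Ahr exceeded the mean level of 89.2% of deposited genes, and in small intestine of 93.2%.

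The order of Ahr by mean log2(TPM + 1) was small intestine, colon, spleen, blood, lung, skin and bone marrow. Changes were tested with limma on log2(TPM + 1) with Benjamini-Hochberg adjustment over all 9806 genes tested, and a gene was called at an adjusted p under 0.05. Neighbours were not called between small intestine and colon, colon and spleen, or spleen and blood (adjusted p 0.195, 0.115 and 0.526). The 3 steps below blood were called, at 4.48e-06 for blood and lung, 0.00662 for lung and skin and 0.000103 for skin and bone marrow. Of all genes tested, 8.03% were called lower in skin than in lung and 22.0% higher in skin than in bone marrow.

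Ahrr, the repressor, stood at 21.25, 12.17, 18.68 and 13.06 TPM in small intestine and at 5.65, 7.77 and 3.58 TPM in colon. It was listed at 0 in all 4 spleen and all 3 bone marrow libraries. Its highest value was 0.35 TPM in skin, 0.35 TPM in lung and 1.25 TPM in blood. The gut and non-gut ranges did not overlap, and the share of all genes with such a separation was not counted. The steps between small intestine and colon (adjusted p 0.00404) and between colon and blood (3.46e-06) were called by limma, and none below blood was.

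Cyp1b1, the ligand-degrading enzyme, stood at 72.19, 68.43, 27.63 and 37.11 TPM in small intestine. In colon it stood at 0.65, 0.89 and 0.55 TPM. Its highest value was 0.84 TPM in skin, 0.1 TPM in lung, 0.18 TPM in spleen, 0.78 TPM in bone marrow and 0.67 TPM in blood. Colon thus overlapped with the tissues outside the gut, and the lowest small intestine library was above every other tissue library. The share of all genes with that pattern was not counted. The step between small intestine and colon was called (limma, adjusted p 1.88e-10), and no step below it was (0.628 to 0.933).

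Tiparp, the ADP-ribosyltransferase, stood at 394.78, 328.58, 245.36 and 267.08 TPM in small intestine and at 218.38, 195.82 and 147.5 TPM in colon. In skin it stood at 32.24, 39.01 and 98.18 TPM and in lung at 85.24, 58 and 69.33 TPM. It was far lower in the remaining tissues: 5.78, 9.21, 8.15 and 6.91 TPM in spleen, 6.63, 4.3 and 4.09 TPM in bone marrow and 10.52, 6.3, 4.55 and 13.54 TPM in blood. The 4 tissues with a barrier surface did not overlap with spleen, bone marrow and blood, and the share of all genes for which this held was not counted. In the order small intestine, colon, lung, skin, blood, spleen and bone marrow, limma called the steps between colon and lung (adjusted p 0.00298) and between skin and blood (1.19e-06). Of all genes tested, 31.9% were called higher in colon than in lung. It did not call the steps between small intestine and colon (0.18), lung and skin (0.285), blood and spleen (0.982) or spleen and bone marrow (0.257).

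**Figure D1:**
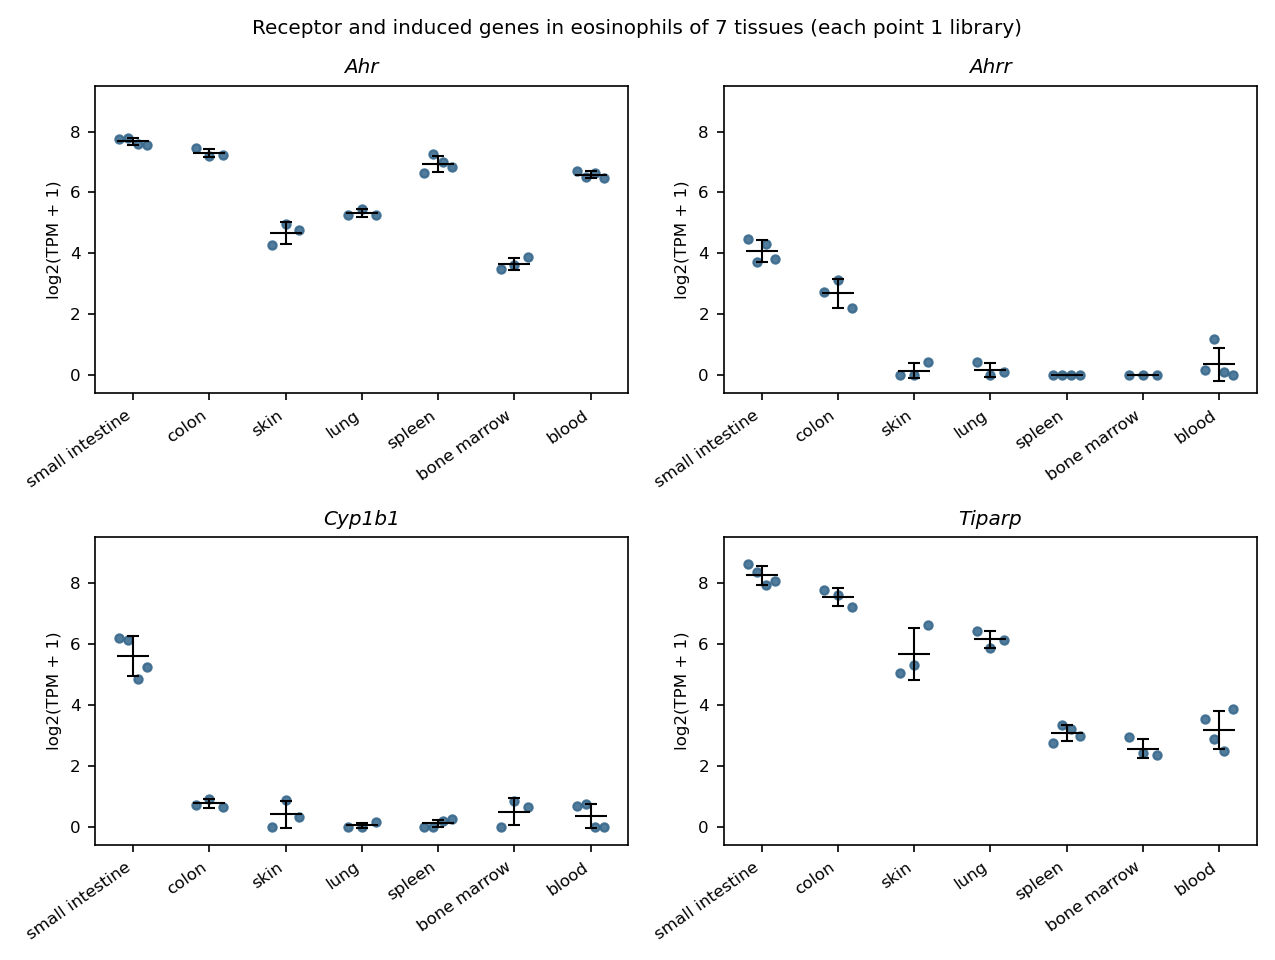
Log2(TPM + 1) of Ahr, Ahrr, Cyp1b1 and Tiparp in each library of 7 tissues, with each point 1 library and bars for the mean and SD of a tissue. Ahr is high in small intestine, colon, spleen and blood, Tiparp in the gut and then lung and skin, Ahrr is above 1.25 TPM in the gut alone and Cyp1b1 above 0.89 TPM in small intestine alone.

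All 4 genes differed among the 7 tissues by limma's moderated F-test (adjusted p 9.67e-16 for Ahr, 1.05e-11 for Ahrr, 5.14e-13 for Cyp1b1 and 1.78e-14 for Tiparp). So did 81.1% of the genes tested, so a difference among tissues says little about these 4 in particular. Small intestine was called higher for all 4 against skin, lung, spleen, bone marrow and blood. The shares of all genes tested that were called higher in small intestine were 16.0% against skin, 39.1% against lung, 21.8% against spleen, 22.0% against bone marrow and 26.0% against blood.

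Changes below are log2 differences of log2(TPM + 1) relative to the median gene, that is, after subtracting the median change of all genes tested. That median was 0.02 for small intestine against colon, 0.14 for small intestine against blood, 0.10 for colon against blood, 0.17 for skin against blood, -0.43 for lung against blood and 0.06 for bone marrow against blood. The p-values are those of the changes before subtraction.

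Against blood, the induced genes called in the gut had larger changes than the receptor gene. These comparisons share the 4 blood libraries. In small intestine Ahr was higher than in blood by 0.95 (SE 0.16, adjusted p 5.37e-06), and Ahrr, Cyp1b1 and Tiparp were higher by 3.58, 5.11 and 4.93 (adjusted p 1.67e-10, 9.76e-13 and 4.39e-13). In colon Ahr was higher than in blood by 0.62 (SE 0.18, adjusted p 0.00276), Ahrr by 2.22 (3.46e-06) and Tiparp by 4.25 (7.72e-11). With quantile normalization the Ahr call was lost (change 0.33, adjusted p 0.138). Cyp1b1 was not called in colon against blood (0.31, 95% interval -0.42 to 1.04, adjusted p 0.416). Of all genes tested, 19.9% were called higher in colon than in blood.

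In lung and skin the receptor gene and Tiparp changed in opposite directions. In lung Ahr was lower than in blood by limma (change -0.83, adjusted p 4.48e-06), and Tiparp was higher (3.39, 9.79e-08). In skin Ahr was likewise lower than in blood (-2.09, 3.65e-09) and Tiparp higher (2.32, 1.19e-06). Among all genes tested, 8.99% were called higher and 26.7% lower in lung than in blood, and 22.9% and 14.2% in skin than in blood. Ahrr and Cyp1b1 were not called in lung or skin (adjusted p 0.536 to 0.933). In bone marrow Ahr was lower than in blood (-3.00, 3.36e-12, with 15.3% of all genes called lower). Tiparp was not called (-0.68, 0.152), but was called lower with quantile normalization (-1.07, 0.0153). None of the 4 genes was called between spleen and blood, where 0.857% of genes were called higher and 0.235% lower. Without the adjustment, limma's p for Ahr there was 0.0493, and 1 of the 4 genes had a p under 0.05.

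Markers of other cells and of granulocyte precursors moved with these tissues. In bone marrow the neutrophil and precursor genes S100a8, Elane and Mpo averaged 16464, 7052 and 2575 TPM, and in blood 7.12, 1.41 and 1.70 TPM. Epx, a granule gene of developing eosinophils, averaged 1520 TPM in bone marrow and 1.29 TPM in blood. The 10 listed neutrophil genes summed to between 65905 and 75126 TPM in lung, between 4311 and 12315 TPM in skin, between 52068 and 67310 TPM in spleen, between 66222 and 74454 TPM in bone marrow and between 58526 and 65496 TPM in blood. Outside bone marrow, 1 gene, Retnlg, made up most of these sums. It averaged 70436.5 TPM in lung, 7364 TPM in skin, 56426 TPM in spleen and 61058.5 TPM in blood. In bone marrow it averaged 17778 TPM. The neutrophil genes S100a9 and Ly6g averaged 20.8 and 0.185 TPM in blood. Erythroid genes were highest in blood, which overlapped with spleen alone. The 6 listed summed to between 14.4 and 17729 TPM in small intestine, between 71.2 and 349 TPM in colon, between 2.18 and 1393 TPM in skin, between 2264 and 29133 TPM in lung and between 36.2 and 39540 TPM in spleen. In bone marrow they summed to between 7776 and 18468 TPM, and in blood to between 39115 and 118815 TPM. The part of these genes in the comparisons with blood was not tested.

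The comparison of small intestine with colon sets apart 2 gut tissues that both held Ahr, Ahrr and Tiparp. Cyp1b1 was the gene that separated them most widely. The ratio of mean TPM in small intestine to that in colon was 1.299 for Ahr, 2.87 for Ahrr, 73.7 for Cyp1b1 and 1.65 for Tiparp. For each of the 4 genes every small intestine library was above every colon library, as was so for 11.6% of all genes tested. Limma called Cyp1b1 (4.82 log2 relative to the median gene, 95% interval 4.09 to 5.55, adjusted p 1.88e-10) and Ahrr (1.37, interval 0.69 to 2.04, adjusted p 0.00404). It did not call Ahr (0.35, interval -0.01 to 0.72, adjusted p 0.195) or Tiparp (0.69, interval 0.02 to 1.37, adjusted p 0.18). Thus 2 of the 4 genes were called, where 5.63% of all genes tested were called higher and 7.10% lower. The Tiparp call depended on the spread used: with only the 7 libraries of the 2 tissues in the fit its adjusted p was 0.0252. The Ahrr call was lost with a pseudocount of 0.1 (adjusted p 0.268).

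**Figure D2:**
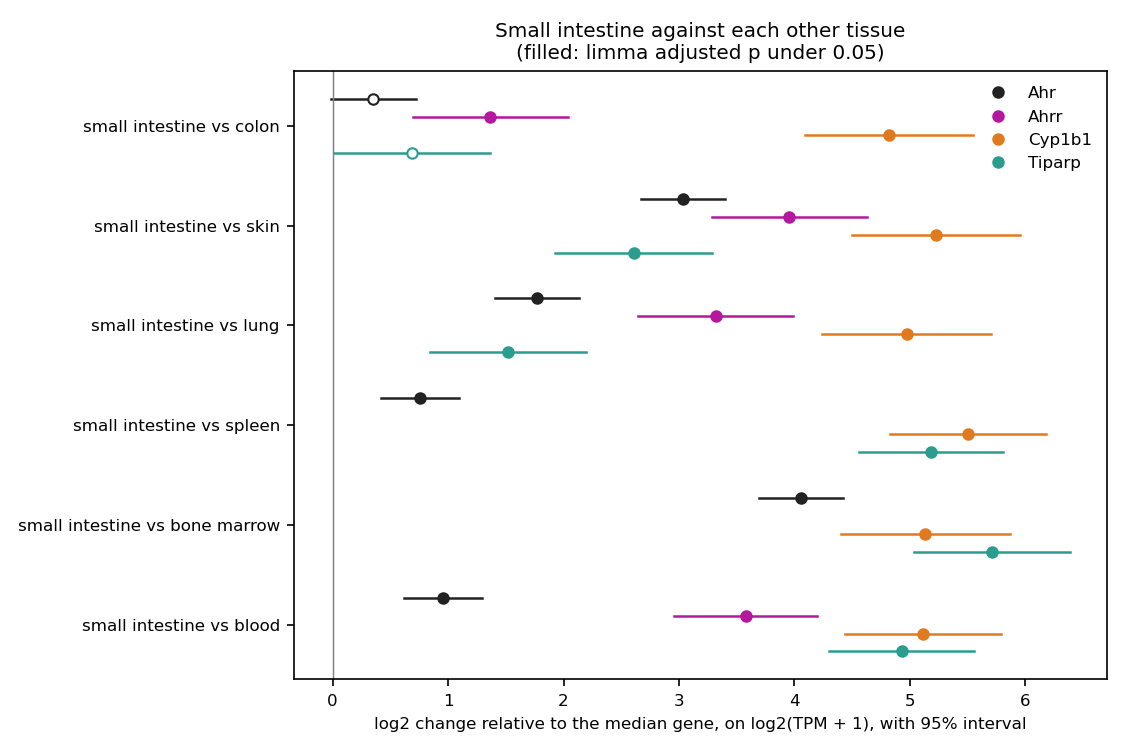
Log2 change of each gene in small intestine against each other tissue, relative to the median gene, with 95% intervals, and filled points for an adjusted p under 0.05. Ahrr is not drawn against spleen and bone marrow, where it is listed at 0. Against colon only Cyp1b1, at 4.82, and Ahrr, at 1.37, are filled.

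Cyp1b1 is known to be made by fibroblasts and endothelium, so markers of those cells were read beside it. Of 12 listed stromal and endothelial genes 4 had been deposited, and they summed to between 165 and 215 TPM in small intestine and between 92.6 and 157 TPM in colon. Most of that was Pecam1, at 132 to 163 TPM in small intestine and 90.0 to 109 TPM in colon. The fibroblast gene Dcn stood at 47.87, 2.2, 21.42 and 50.14 TPM in the 4 small intestine libraries and at 0.35, 1.9 and 35.13 TPM in the 3 colon libraries. In the same order Cyp1b1 stood at 72.19, 68.43, 27.63 and 37.11 TPM in small intestine and at 0.65, 0.89 and 0.55 TPM in colon. Pecam1 was higher in every small intestine library than in every colon library, and the ranges of Dcn overlapped. Col1a2, a collagen gene, stood at 6.52, 0.4, 5.1 and 9.5 TPM in small intestine and at 0.2, 0 and 10.02 TPM in colon.

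Other marker lists also differed between the gut tissues. Macrophage, monocyte and dendritic cell genes (9 of 15 deposited) summed to between 259 and 785 TPM in small intestine and between 209 and 475 TPM in colon. Csf1r was lower in small intestine, at a mean of 38.6 TPM against 107 TPM in colon, and so was Zbtb46 (0.535 against 2.63 TPM). C1qa, C1qb, Cd68, Ly6c2, H2-Aa, H2-Ab1 and Cd74 had higher means in small intestine. Epithelial genes (4 of 13 deposited) summed to between 101 and 219 TPM in small intestine, with Olfm4 the most abundant, and between 41.7 and 78.8 TPM in colon. Olfm4 averaged 115.8 TPM in small intestine and 7.42 TPM in colon. Epcam, Krt18 and Krt19 went the other way, at means of 2.115, 30.4 and 2.99 TPM in small intestine. In colon these 3 averaged 7.28, 33.7 and 8.14 TPM. Of 11 T cell and innate lymphoid genes, 1 had been deposited, at no more than 1.81 TPM in small intestine and 0 in colon. B and plasma cell genes (3 of 10 deposited) summed to between 204 and 1080 TPM in small intestine and between 161 and 176 TPM in colon, without overlap. Most of the colon sums was Xbp1, at 150 to 174 TPM, which overlapped with its 162 to 222 TPM in small intestine. Jchain overlapped too, at 8.33, 27.19, 908.83 and 12.93 TPM in small intestine and 17.2, 2.53 and 1.83 TPM in colon. The highest sum was that of small intestine replicate 3, with 908.83 TPM of Jchain, which was also the small intestine library with the least Cyp1b1. Erythroid genes (6 of 6 deposited) summed to between 14.4 and 17729 TPM in small intestine and between 71.2 and 349 TPM in colon. Neutrophil genes (10 of 10) summed to between 5910 and 7724 TPM in small intestine and between 11559 and 13852 TPM in colon. Retnlg made up most of the neutrophil sums, with a mean of 6941 TPM in small intestine and 12525 TPM in colon. S100a8, S100a9, Ngp, Camp, Elane, Mpo and Cxcr2 had higher means in small intestine, and Ltf and Ly6g in colon. The 11 deposited eosinophil genes summed to between 2697 and 3059 TPM in small intestine and between 3846 and 4362 TPM in colon. The part of these other cells in the results was not tested.

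Immediate early and heat shock genes, which tissue digestion is known to raise, went the other way from the receptor genes between the gut tissues. The 22 listed genes summed to between 6644 and 10937 TPM in small intestine and between 16209 and 22088 TPM in colon, and limma called 1 higher and 13 lower in small intestine. Of all genes tested, 5.63% were called higher and 7.10% lower. In colon against blood, where Ahr, Ahrr and Tiparp were higher, 19 of the 22 were called higher and 0 lower. Their sums ran between 16209 and 22088 TPM in colon and between 4535 and 8016 TPM in blood. In small intestine against blood, 13 were higher and 4 lower. Of all genes tested, 19.9% were called higher in colon than in blood and 26.0% in small intestine than in blood. The part of the 22 genes in the results was not tested.

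Within a library, an induced gene can be set against the receptor gene, which removes the scaling of the library up to the pseudocount. On average small intestine, colon, skin and lung carried more Tiparp than Ahr per length, and spleen, bone marrow and blood less. The mean log2 ratio of Tiparp to Ahr, each with 1 added, was 0.57 ± 0.21 in small intestine (SD, n = 4), 0.23 ± 0.23 in colon (SD, n = 3), 0.9997 ± 0.78 in skin (SD, n = 3) and 0.82 ± 0.38 in lung (SD, n = 3). It was -3.86 ± 0.04 in spleen (SD, n = 4), -1.09 ± 0.50 in bone marrow (SD, n = 3) and -3.41 ± 0.66 in blood (SD, n = 4). The means of skin and lung were thus above those of both gut tissues, and neither was tested against them. The mean log2 ratio of Cyp1b1 to Ahr was -2.08 ± 0.55 in small intestine, -6.55 ± 0.23 in colon and -6.24 ± 0.40 in blood. That of Ahrr to Ahr was -3.60 ± 0.38 in small intestine, -4.62 ± 0.49 in colon and -6.23 ± 0.60 in blood. Where Ahrr or Cyp1b1 is near 0, as in bone marrow, this ratio shows little but the level of Ahr.

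The change of each induced gene was then set against that of the receptor gene. Relative to Ahr, Cyp1b1 was 4.47 higher in small intestine than in colon on the log2 scale, Ahrr 1.01 higher and Tiparp 0.34 higher. Exact two-sided permutation tests over libraries gave p = 0.0286, 0.0571 and 0.0857, and after Benjamini-Hochberg adjustment over the 12 tests of this kind 0.0686, 0.0857 and 0.114. The smallest p these group sizes allow is 0.0286, so 1 test alone could not pass after adjustment unless most of the others also came near it. In small intestine against blood the 3 differences were 2.62 for Ahrr, 4.16 for Cyp1b1 and 3.98 for Tiparp, each at that smallest p and at 0.0686 adjusted. In colon against blood, Tiparp differed by 3.64 (exact p 0.0286, adjusted 0.0686), Ahrr by 1.61 (0.0571, adjusted 0.0857) and Cyp1b1 by -0.31 (0.343, adjusted 0.374).

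A limma fit of every gene minus Ahr, chosen after seeing the data, pools the spread over tissues. In it Cyp1b1 was called in small intestine against colon (adjusted p 5.21e-10), and Ahrr (0.0724) and Tiparp (0.55) were not, where 14.8% of genes were called. All 3 were called in small intestine against blood (4.05e-07 for Ahrr, 4.45e-11 for Cyp1b1 and 1.93e-11 for Tiparp), where 62.7% of genes were called. In colon against blood Ahrr (0.00134) and Tiparp (2.22e-09) were called and Cyp1b1 was not (0.511), where 41.1% of genes were called.

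**Figure D3:**
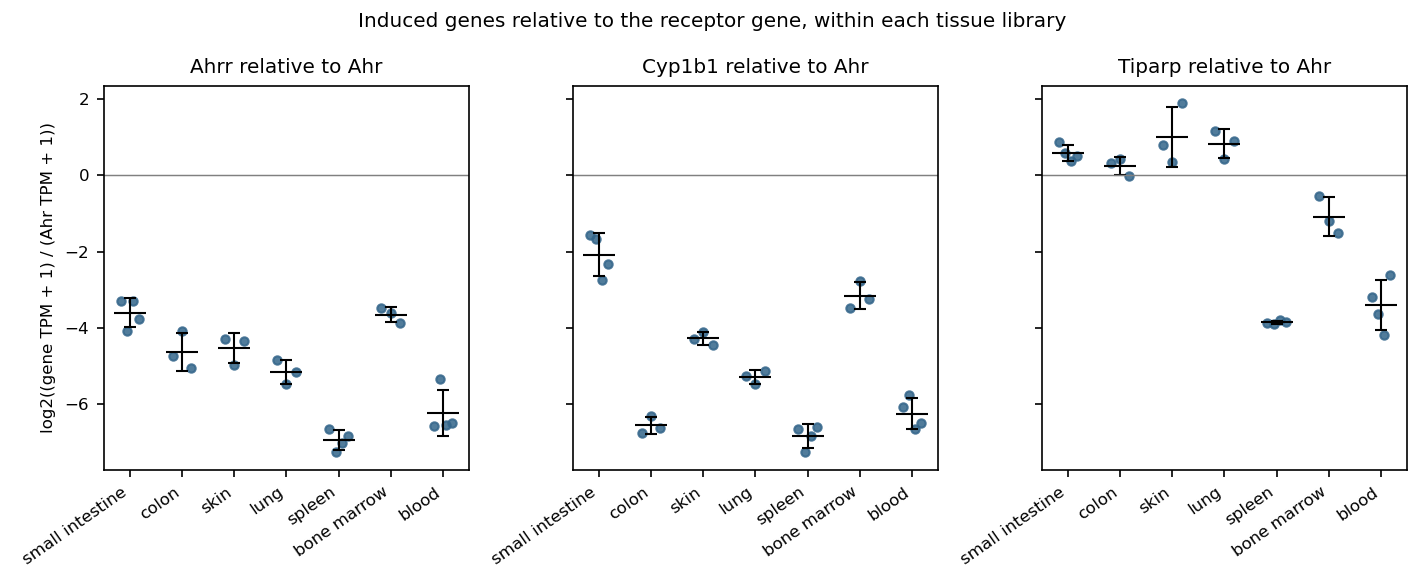
Log2 of (gene TPM + 1) over (Ahr TPM + 1) for Ahrr, Cyp1b1 and Tiparp in each tissue library, with the mean and SD; 0 marks equal levels. Tiparp has a mean above 0 in small intestine (0.57), colon, skin and lung (0.82) and of -3.41 in blood, and Cyp1b1 is at -2.08 in small intestine against -6.55 in colon.

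Other genes of the pathway were read from 6 lists, of which 4 held a gene called higher in small intestine than in colon. Of all genes tested, 5.63% were called higher. That is a share of genes, so the count of lists cannot be set against it. Of the receptor complex and its partner, 5 of 6 listed genes had been deposited, and limma called 0 higher and 0 lower (median change 0.26), also under the 2 other scalings. Of these 5, 1 had an unadjusted p under 0.05. The partner gene Arnt averaged 22.3 ± 6.45 TPM in small intestine (SD, n = 4) and 17.2 ± 6.26 TPM in colon (SD, n = 3). Of 16 other genes known as receptor-induced, 6 had been deposited. Limma called 1 of them higher, Xdh, and 0 lower (median -0.36). Median-ratio scaling called 1 higher and 1 lower, and quantile normalization 1 higher and 0 lower. Xdh, which encodes the purine enzyme xanthine dehydrogenase, averaged 10.9 ± 3.73 TPM in small intestine and 1.73 ± 1.96 TPM in colon (2.33, adjusted p 0.00554). Nqo1, a quinone reductase, averaged 37.1 ± 4.57 TPM in small intestine and 43.6 ± 15.7 TPM in colon, and was not called (adjusted p 0.855).

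Of 13 genes of kynurenine and tryptophan handling 6 had been deposited, and 1 was called higher in small intestine than in colon and 0 lower (median 0.15). That gene was Slc3a2, the heavy chain of amino acid exchangers, at 1701 ± 285 TPM in small intestine and 558 ± 47.4 TPM in colon (1.57, adjusted p 2.47e-06). Among 12 PARP family members 2 were called higher, Parp8 and Parp10, and among 9 genes of receptor turnover and repression 1, Hdac5. Among 6 deposited bHLH-PAS factors and coactivators limma called 0, and 0 had an unadjusted p under 0.05. Parp8, Parp10 and Hdac5 are named after their values were seen.

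Against blood, most battery genes were higher in both gut tissues, in comparisons that share the blood libraries. All 6 deposited battery genes were called higher in small intestine than in blood (median 2.31), and 5 of the 6 in colon than in blood (median 2.09). Of all genes tested, 26.0% were called higher in small intestine than in blood and 19.9% in colon than in blood. With quantile normalization 5 were called in small intestine. Nfe2l2, a regulator of antioxidant genes, averaged 374 ± 44.6 TPM in small intestine, 352 ± 28.7 TPM in colon and 47.9 ± 3.86 TPM in blood. Of the receptor complex, 3 of 5 were called higher in small intestine than in blood, all of them chaperone genes (Hsp90aa1, Hsp90ab1 and Ptges3). In colon the same 3 were called higher than in blood, and 1 of the 5 was called lower, also under the 2 other scalings. These genes of the complex, and Nfe2l2, are named after their values were seen.

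In the Nmur1 sort, eosinophils with the reporter carried more Ahr, Cyp1b1 and Tiparp than eosinophils without it from the same organ. Ahr stood at 249.02, 255.48, 195.43, 245.96 and 238.19 TPM in Nmur1 positive replicates 1, 3, 4, 5 and 8. In Nmur1 negative cells its lowest, median and highest values were 136, 149 and 179 TPM. Tiparp stood at 421.61, 547.27, 388.08, 580 and 560.97 TPM in Nmur1 positive cells, and between 174 and 335 TPM with a median of 248 in Nmur1 negative cells. For both genes every Nmur1 positive library was above every Nmur1 negative library, as was so for 5.65% of all genes tested.

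Cyp1b1 stood at 37.97, 86.49, 34.14, 128.06 and 57.84 TPM in Nmur1 positive cells, and between 14.7 and 41.2 TPM with a median of 27.5 in Nmur1 negative cells. Ahrr stood at 9.74, 29.35, 13.33, 19.48 and 19.92 TPM in Nmur1 positive cells, and between 6.42 and 13.4 TPM with a median of 11.4 in Nmur1 negative cells. The ranges of both genes overlapped between the sorts. The labels give replicate numbers 3, 4, 5 and 8 to both sorts, but do not say that the numbers pair libraries. Within each of these 4 numbers, all 4 genes were higher in the Nmur1 positive library. The share of all genes for which this held was not counted, and the median gene was itself 0.22 higher in Nmur1 positive libraries.

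Limma over the 11 libraries called Ahr (0.43 log2 relative to the median gene, SE 0.13, adjusted p 0.00305), Cyp1b1 (1.05, SE 0.34, 0.0181) and Tiparp (0.78, SE 0.17, 0.000625). It did not call Ahrr (0.47, 95% interval -0.17 to 1.10, adjusted p 0.14). With the replicate number as a block, Ahrr was called as well, with a change of 1.02 before subtraction of the median (adjusted p 0.0354). The median gene was itself higher by 0.22 in Nmur1 positive libraries. Of all genes tested 9.18% were called higher and 5.25% lower, a split of 733 higher among 1152 called. With median-ratio scaling it was 362 of 954 and with quantile normalization 428 of 957, and Ahr, Cyp1b1 and Tiparp were called higher under both. Without Nmur1 positive replicate 5, the library with the most Cyp1b1, that gene had a change of 1.005 before subtraction and an adjusted p of 0.0542.

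**Figure D4:**
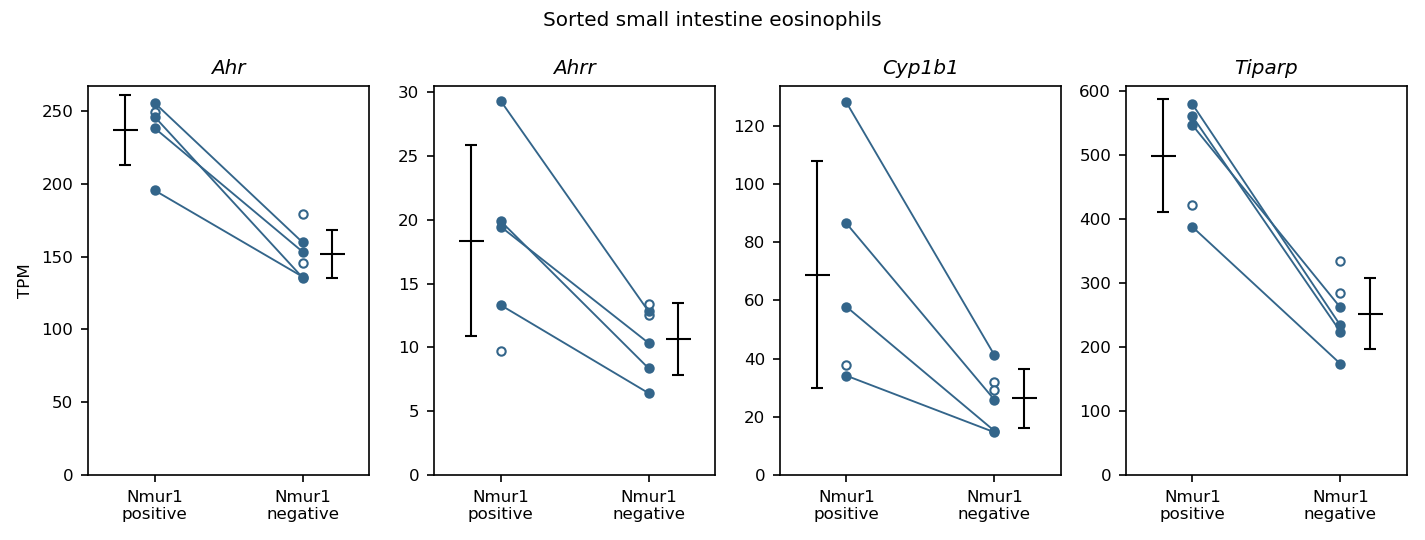
TPM of the 4 genes in sorted small intestine eosinophils, with Nmur1 positive libraries left and Nmur1 negative libraries right, lines between libraries with the same replicate number, open points for libraries without a partner, and bars for the mean and SD. All 4 lines of each gene are higher at Nmur1 positive; the ranges of Ahr and Tiparp do not overlap and those of Ahrr and Cyp1b1 do.

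Relative to Ahr the sorts differed less clearly. Tiparp relative to Ahr was 0.35 higher on the log2 scale in Nmur1 positive cells (exact p 0.0498, adjusted 0.0857), Cyp1b1 0.63 higher (0.141, adjusted 0.169) and Ahrr 0.04 higher (0.877, the same adjusted). These were exact two-sided permutation tests over 462 regroupings, which could reach 0.00216. In the added limma fit of every gene minus Ahr the adjusted p was 0.116 for Tiparp, 0.157 for Cyp1b1 and 0.938 for Ahrr, where 26.8% of genes were called. With the replicate block in that fit, Tiparp was called (0.54, 0.00472) and so was Cyp1b1 (0.92, 0.00692), where 29.2% of genes were called, and Ahrr was not (0.35, 0.415).

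The partner gene was also higher in Nmur1 positive cells. Arnt stood at 43.08, 34.98, 28.67, 33.92 and 48.17 TPM in Nmur1 positive cells, and between 9.73 and 24.9 TPM with a median of 14.7 in Nmur1 negative cells. The ranges did not overlap (1.005, limma adjusted p 0.0062), and Arnt was the 1 of 5 complex genes called. Of all genes tested, 9.18% were called higher, and 5.65% had every Nmur1 positive library above every Nmur1 negative library. Whether the change of Arnt differed from that between small intestine and colon was not tested.

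The other induced genes did not move together in the sort. Of 6 battery genes 1 was called higher and 1 lower (median -0.54), and median-ratio scaling called 1 higher and 3 lower. Before that scaling, 9.18% of all genes tested were called higher and 5.25% lower. Socs2, a suppressor of cytokine signalling, averaged 314 ± 73.1 TPM in Nmur1 positive cells and 162 ± 25.8 TPM in Nmur1 negative cells (0.71, limma adjusted p 0.00158). Nqo1 went the other way, at 18.01, 26.91, 15.65, 45.04 and 13.13 TPM in Nmur1 positive cells and between 26.9 and 73.4 TPM with a median of 45.8 in Nmur1 negative cells (-1.31, adjusted p 0.0271). Of 5 kynurenine and tryptophan genes 1 was called higher and 0 lower. This was again Slc3a2, at 1765 ± 161 TPM in Nmur1 positive cells and 1022 ± 212 TPM in Nmur1 negative cells (0.59, adjusted p 0.000669). Among 9 genes of turnover and repression, Hdac5 was called higher, and Relb and Rela, subunits of NF-kappa B, lower. Of 11 PARP genes, Parp8 was called higher, and of 6 bHLH-PAS factors and coactivators, Ncoa2, whose call was lost with both other scalings. These turnover, PARP and bHLH-PAS genes are named after their values were seen.

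Digestion-response genes also moved with the sort. Of the 22 listed, 7 were called higher in Nmur1 positive cells and 2 lower, and they summed to between 8372 and 25027 TPM in Nmur1 positive libraries and between 5679 and 16973 TPM in Nmur1 negative libraries. Of all genes tested, 9.18% were called higher and 5.25% lower. Macrophage, monocyte and dendritic cell genes (7 of 15 deposited) summed to between 506 and 642 TPM in Nmur1 positive cells and between 323 and 2202 TPM in Nmur1 negative cells. Of the stromal list Pecam1 alone had been deposited, at 155 to 235 TPM in Nmur1 positive cells and 78.0 to 145 TPM in Nmur1 negative cells. The part of these genes and cells in the result was not tested.

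The patterns most like each gene over the 24 tissue libraries are given as a description, by Pearson r of log2(TPM + 1) among 7153 candidate genes. The libraries share tissues, so these values mostly follow tissue means. Closest to Ahr were Adipor1 (0.97), Gcnt2 (0.93), Clk1 (0.92) and Bank1 (0.92). Closest to Ahrr were Slc24a3 (0.95), Insig1 (0.94), Hcar2 (0.94) and Itgax (0.93). Closest to Cyp1b1 were F2rl3, Cdh17, Dpep2 and Jaml (each 0.97). Closest to Tiparp were Tmed5 (0.98), Slc7a11, Selenon and Sesn2 (each 0.97). No gene appeared in 2 of these lists. Over the 11 sorted libraries, the closest were Adam8 and Dusp16 for Ahr (both 0.97), BC005537 (0.96) and Adprh (0.92) for Ahrr, Atp1b1 (0.96) and Csnk1a1 (0.95) for Cyp1b1, and Dtx4 (0.97) and Maea (0.96) for Tiparp.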

How the data were processed

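Smart-seq2, which amplifies whole cDNA without marking strand, was used for the bulk libraries, with 150 bp paired reads, per the labels. The authors deposited TPM values per gene and library in 2 tables; the submitters' processing notes name the build mm10 and the tools RSEM 1.3.3, STAR 2.7.5c and cutadapt 2.10. Not given in the sources used here are the annotation, the depths and the rule for removing genes. A value above 0 in no fewer than 3 tissue libraries or 6 sorted libraries was common to all genes in the tables. Column sums were 796048 to 890768 TPM. The tables were analysed separately, and a single-cell sample was not analysed here.

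Values were analysed as log2(TPM + 1), which understates changes of low genes, with limma 3.58.1 in R 4.3.3 (trend, two-sided). Genes with at least 1 TPM in at least 3 tissue libraries (9806 genes) or 5 sorted libraries (7982 genes) were tested, and all 24 tissue libraries shared 1 spread. The fit was tested on simulated data. Groups and replicate numbers came from titles. In the sort, deviations of the 4 same-numbered pairs correlated at 0.164 to 0.225. Those of 26 pairs with different numbers correlated at -0.175 to 0.194, with a median of -0.04. The ranges overlap and the labels give no pairing, so whether the numbers pair libraries is not settled. In tissues the median was 0.0013 for same numbers and -0.0003 for different numbers. The genes, lists and tests were chosen with earlier results of these data known. Named with values were the called genes of the complex, battery and kynurenine lists that changed most, up to 4 a list, and for likeness the closest genes with at least 10 TPM in a tissue. Alternatives were other pseudocounts, scalings, filters, fits with fewer libraries, the replicate block and leaving out each library.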

Additional observations from a re-analysis of the deposited data

Results flagged for a closer look

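Of 19 groups of 4 or more libraries examined for a value far from the others, 2 held one, about what chance gives at 1 in 20 groups. Ahrr in blood replicate 2 was 1.25 TPM, against 0.12, 0.08 and 0 TPM in the other blood libraries. The gap to its nearest neighbour was 0.904 of the range, above the critical value of 0.829. Ahr in Nmur1 positive replicate 4 was 195.43 TPM, below the 238.19 to 255.48 TPM of the other Nmur1 positive libraries and above the highest Nmur1 negative library, at 179.11 TPM. Its gap was 0.712 of the range, at a critical value of 0.71.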

How the results depend on the processing

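Of 357 recomputed results under other settings, 341 were scored as the same, and of 837 that leave out 1 library, 832 were. For a test, the same meant the same direction and side of the threshold. A count of called genes also passed after a modest relative change, such as from 3 to 2 in colon against blood. The totals include the exact tests of an induced gene minus Ahr, none of which passed after adjustment in the main run. With the replicate block their unadjusted p could not fall below 0.125. Those 12 could thus change score only by turning sign, so part of the same scores was fixed in advance. With a pseudocount of 0.1, Ahrr in small intestine against colon was 1.54 and no longer called (adjusted p 0.268), which left 1 of the 4 genes called, and Cyp1b1 minus Ahr in colon against blood turned to 0.82 (adjusted p 0.436). With a pseudocount of 5, Ahrr minus Ahr in the sort turned to -0.0896 (adjusted p 0.703). With quantile normalization 2 genes were called in bone marrow against blood, not 1 (Tiparp gained), and 2 in colon against blood, not 3 (Ahr lost). With only the compared tissues in the fit, Tiparp in small intestine against colon (0.71) was called (adjusted p 0.0252), where the spread came from fewer libraries. In the sort the replicate block raised Ahrr to 1.02 (adjusted p 0.0354, or 0.0341 with only the 4 shared numbers) and changed no other call of the 4 genes. In tissues the labels give no pairing either. A replicate block there left 1225 genes called in small intestine against colon, and the same 2 of the 4 genes. The limma fit of every gene minus Ahr, added after seeing the data, called Cyp1b1 in small intestine against colon (4.47), Ahrr (2.62), Cyp1b1 (4.16) and Tiparp (3.98) in small intestine against blood, and Ahrr (1.61) and Tiparp (3.64) in colon against blood. With the replicate block it called Cyp1b1 (0.92) and Tiparp (0.54) in the sort. Leaving out 1 library at a time, Cyp1b1 in the sort ranged between 1.005 (adjusted p 0.0542, without Nmur1 positive replicate 5) and 1.47. Ahrr minus Ahr in the sort ranged between -0.11 and 0.25, and turned sign without Nmur1 positive replicate 3 or 8 or Nmur1 negative replicate 4 or 8. Genes called ranged between 959 and 1333 in small intestine against colon and between 867 and 1161 in the sort. The causes of these changes were not tested. Depth is unknown, so values near 0 carry no interval, and with 3 or 4 libraries per tissue no exact test passed after adjustment.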
